A study of Mus musculus with 6 samples.

Results

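The genes described here are 10 of the cellular response to low oxygen, other than enzymes of glycolysis. They are Hif1a, Egln1, Egln3, Vegfa, Adm, Bnip3, Higd1a, P4ha1, Ndrg1 and Ankrd37. They were taken by symbol from a table of 20893 genes, and each symbol occurred there once. RNA came from hearts of C57BL6/J mice, 3 libraries with a germline knockout of Rbpms (labelled R1KO) and 3 wildtype libraries from littermates. Rbpms encodes an RNA-binding protein, and the comparison asks how heart RNA differs without it. The hearts are called embryonic in the series title and neonatal in its design text, so the stage is not settled. Neither the deleted part of Rbpms nor whether each library came from 1 animal is stated in the sources used here. P-values therefore measure only the spread between these libraries.

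The hypoxia response is run by a pair of transcription factor subunits, an oxygen-regulated alpha subunit such as HIF-1 alpha (Hif1a) and the constant partner Arnt. With oxygen present, prolyl hydroxylases of the Egln family mark the alpha subunit for destruction through the Vhl ubiquitin ligase. When oxygen is low the alpha subunit persists and binds DNA at a short core, ACGTG or GCGTG, near its target genes. Because this control acts on the protein, Hif1a RNA is not a readout of the activity of the pathway, and RNA of its targets is read for that purpose. The heart before birth develops in low oxygen, and target genes of HIF are known to be active in it.

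The core motif was looked for in RefSeq promoter windows of the build GRCm38.p6, which hold 250 bases before and 50 after a gene start. The 10 genes had 10 windows for 9 symbols, with a pair for Vegfa. The table had none for Ndrg1. ACGTG on either strand was found in the windows of 8 of the 9 genes, or 8 of the 10 windows, and in 19.6% of all 32851 windows. ACGTG or GCGTG was found for 9 of 9 genes, or 9 of the 10 windows, and in 43.8% of all windows. The Vegfa window at the upstream start (chr17:46032378-46032627) held 0 of either motif. The downstream one (chr17:46025164-46025413) held 1 of each. Vegfa is counted among the genes with a motif only through this window, which lies past the upstream start along the gene. The only ACGTG of Higd1a began 43 bases after its start. A palindrome CACGTG counts once on each strand. The bases before the start are shown for 4 genes so that motif letters can be set beside values in knockout hearts. Ankrd37 and Egln3 were lower in every knockout library than in every wildtype library. For Bnip3 and Egln1 the groups overlapped. The windows are chr8:45999851-46000100, chr12:54203875-54204124, chr7:138909507-138909756 and chr8:124949255-124949504, all on the reverse strand, written 5′ to 3′ along the gene with the motifs of either strand in capitals.
Ankrd37: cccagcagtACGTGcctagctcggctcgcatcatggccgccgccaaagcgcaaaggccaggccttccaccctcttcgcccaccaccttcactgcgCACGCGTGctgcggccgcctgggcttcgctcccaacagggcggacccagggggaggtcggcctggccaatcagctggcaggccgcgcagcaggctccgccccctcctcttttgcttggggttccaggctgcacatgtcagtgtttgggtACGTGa
Egln3: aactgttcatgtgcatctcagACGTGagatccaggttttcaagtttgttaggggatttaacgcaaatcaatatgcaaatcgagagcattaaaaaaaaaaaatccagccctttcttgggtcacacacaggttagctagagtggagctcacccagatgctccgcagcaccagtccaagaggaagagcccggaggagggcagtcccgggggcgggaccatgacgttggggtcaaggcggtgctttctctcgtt
Bnip3: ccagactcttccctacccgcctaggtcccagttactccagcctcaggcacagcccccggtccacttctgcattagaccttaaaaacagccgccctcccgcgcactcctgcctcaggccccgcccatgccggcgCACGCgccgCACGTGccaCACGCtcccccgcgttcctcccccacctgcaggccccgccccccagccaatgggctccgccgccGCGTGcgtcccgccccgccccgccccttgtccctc
Egln1: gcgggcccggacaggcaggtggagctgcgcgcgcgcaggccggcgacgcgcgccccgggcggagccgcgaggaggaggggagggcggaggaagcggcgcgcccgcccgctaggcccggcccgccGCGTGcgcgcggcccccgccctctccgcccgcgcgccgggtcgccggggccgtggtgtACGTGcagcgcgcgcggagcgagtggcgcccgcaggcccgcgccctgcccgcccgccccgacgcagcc
Ankrd37 held 2 ACGTG and 2 GCGTG, one ACGTG starting 6 bases before the gene start. Egln3 held 1 ACGTG, 229 bases before its start. Bnip3 held 2 ACGTG, which are both strands of 1 palindrome, and 3 GCGTG. Egln1 held 1 of each. A match is a description of the letters and not a binding site.

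Rbpms, the targeted gene, was lower in every library labelled knockout. It held 375, 340 and 507 in knockout replicates 1 to 3 and 1182, 1176 and 1317 in wildtype replicates 1 to 3, a log2 fold change of -1.61 (SE 0.14, adjusted p = 0.0124 by limma). Its adjusted p was 0.0523 without knockout replicate 1 and 0.0868, 0.0967 and 0.133 without wildtype replicates 1, 2 and 3. Of all tested genes, these fits called 6, 3, 0 and 0. All values are read numbers scaled for each library and rounded, here called normalized read numbers. Recovered read totals ran from 4163230 to 5805783. Knockout replicate 3 and wildtype replicate 1 were female by Xist and the genes of the Y chromosome, and the other 4 libraries were male. Knockout replicate 3 stood apart in markers of other cells. Its summed epicardial markers were 991, against 1658 to 1817 in the other libraries, and its summed erythroid markers 2177, against 743 to 953. All 12 cardiomyocyte markers were measured, with sums of 33162 to 37224 in knockout and 34533 to 37885 in wildtype hearts. Of 8 markers of lung, liver and thymus, 5 were not in the table and the sum of the others was at most 44.

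All 10 hypoxia genes reached a value of 10 in 3 or more libraries, as did 14974 genes in all, and were tested. None passed the test between knockout and wildtype hearts. By limma with Benjamini-Hochberg adjustment 0 of 10 had an adjusted p under 0.05, where the share of all tested genes was 0.942% (141 genes), 0.508% higher and 0.434% lower. An unadjusted p under 0.05 was reached by 3 of the 10, against 16.4% of all tested genes. The same 3, Ankrd37, Egln3 and Ndrg1, had groups that did not overlap, which held for 22% of all tested genes, 11% higher and 10.9% lower. They did not move one way, since Ankrd37 and Egln3 were lower and Ndrg1 was higher. Voom on recovered reads also called 0 of 10, with 0.488% of all genes called. The median log2 fold change of the 10 was 0.04, against -0.00089 for all tested genes, with 7 of the 10 above 0 against 49.8% of all tested genes. In bulk tissue, fewer cells of a type and less RNA per cell cannot be told apart.

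**Figure D1:**
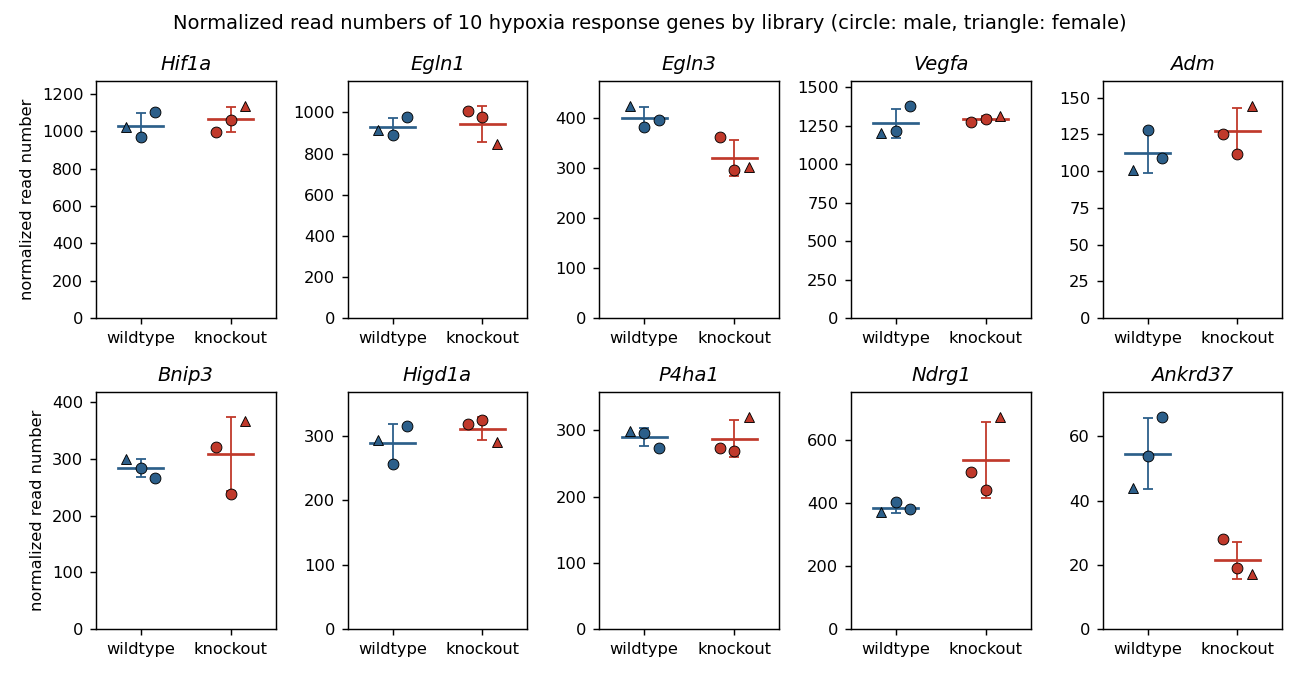
Normalized read number (vertical axes, each from 0) of the 10 hypoxia response genes in 3 wildtype (blue) and 3 knockout (red) libraries; points are libraries, lines means and bars SD, with triangles for the female libraries. The knockout points of Ankrd37 (17 to 28) and Egln3 (297 to 361) lie below all wildtype points, those of Ndrg1 (440 to 672) lie above, and the other 7 genes overlap.

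Levels were compared between genes as normalized read numbers per kilobase of exon, with exon lengths from GENCODE M21. Each length joins the exons of all annotated transcripts of a gene, whether or not these hearts used them. The order depends on these lengths, and the SD between libraries does not cover error in them. Vegfa was highest in wildtype hearts at 296 ± 22.1 per kilobase (SD, n = 3), followed by Egln1 at 258 ± 12.9 and Hif1a at 175 ± 11.4. Egln3 (150 ± 8.03), Bnip3 (125 ± 7.3) and Higd1a (94.8 ± 9.84) came next. P4ha1 (70.4 ± 3.32), Adm (69.6 ± 8.57) and Ndrg1 (58.4 ± 2.48) were lower, and Ankrd37 was lowest at 35.5 ± 7.16. The wildtype libraries of neighbours in this order overlapped only for P4ha1 and Adm. In knockout hearts the first 3 kept their places and Ankrd37 remained last, at 13.9 ± 3.81 per kilobase. By mean, Egln3 came after Bnip3 there, and Ndrg1 before Adm and P4ha1. The knockout libraries overlapped at these changes, Egln3 (112 to 136) with Bnip3 (105 to 162). Ndrg1 (66.7 to 102) likewise overlapped Adm (69.2 to 88.9) and P4ha1 (65.4 to 77.8). Mean recovered reads per base of exon ran from 0.024 for Ankrd37 to 0.301 for Vegfa, and the highest of any gene was 0.925.

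**Figure D2:**
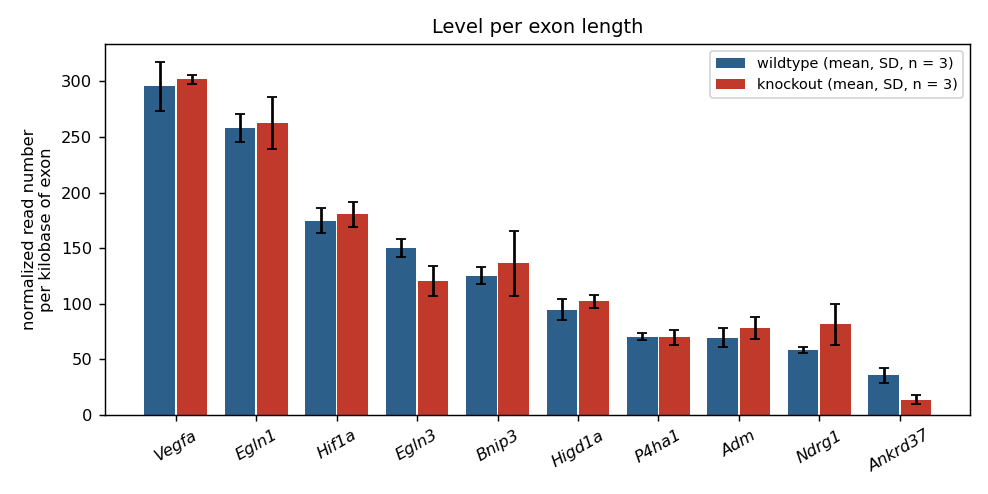
Level of each gene per kilobase of exon (vertical axis, normalized read number per kilobase, from 0) in wildtype (blue) and knockout (red) hearts; bars are means and error bars SD of 3 libraries. Vegfa stands highest at 296 and Ankrd37 lowest at 35.5 in wildtype hearts.

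Among the sensors and the factor itself, the groups overlapped for Hif1a and Egln1 and did not for Egln3. Hif1a (chromosome 12, 73948149 to 73994304 on the forward strand of mm39) held 997, 1061 and 1133 in knockout and 1023, 967 and 1101 in wildtype libraries. The groups overlap, with a log2 fold change of 0.05 and a 95% interval from -0.12 to 0.21 (limma, adjusted p = 0.804). Egln1, the main prolyl hydroxylase that senses oxygen (chromosome 8, 125635326 to 125676063, reverse strand), held 1005, 979 and 846 against 914, 889 and 979. Its lowest and highest values were both in knockout libraries, and its log2 fold change was 0.02, from -0.16 to 0.2 (adjusted p = 0.916).

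Egln3 encodes a prolyl hydroxylase that is itself a strong HIF target and so acts as feedback (chromosome 12, 54225767 to 54250646, reverse strand). It held 361, 297 and 302 in knockout and 423, 381 and 395 in wildtype libraries. Every knockout library was below every wildtype library. The mean was 320 ± 35.6 against 400 ± 21.4 (SD, n = 3 each), 0.801 of the wildtype mean. By limma the log2 fold change was -0.32 (SE 0.09, adjusted p = 0.136), so the difference missed the threshold. It passed in 1 of 22 alternatives, library quality weights (adjusted p = 0.0261), under which 23.3% of all genes were called. Within sexes the log2 difference was -0.24 between the male libraries and -0.48 between the single female pair, which has no test.

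The vascular signals did not separate the groups. Vegfa, the growth factor of endothelial cells (chromosome 17, 46327919 to 46343295, reverse strand), held 1275, 1292 and 1312 in knockout and 1206, 1219 and 1376 in wildtype libraries. The knockout values all lie inside the wildtype range. Its log2 fold change was 0.03 with an interval from -0.12 to 0.19 (limma, adjusted p = 0.852), that is from 0.919 to 1.14 times the wildtype level. Adm, the precursor of the vessel-dilating peptide adrenomedullin (chromosome 7, 110226868 to 110229027, forward strand), held 125, 112 and 144 against 101, 128 and 109. The highest value was in knockout replicate 3, and the log2 fold change was 0.17, from -0.16 to 0.5 (adjusted p = 0.605). It was 0.08 without knockout replicate 3.

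The mitochondrial targets overlapped between the groups as well. Bnip3, a protein of the outer mitochondrial membrane that promotes mitophagy (chromosome 7, 138492565 to 138511248, reverse strand), held 321, 238 and 367 in knockout and 300, 285 and 267 in wildtype libraries. The knockout libraries held both the lowest and the highest value, and varied by 21.2% of their mean against 5.82% in wildtype (SD over mean, n = 3 each). The log2 fold change was 0.1, from -0.24 to 0.43 (limma, adjusted p = 0.789), and -0.04 without knockout replicate 3. Higd1a, a small inner membrane protein of the respiratory chain (chromosome 9, 121677629 to 121687428, reverse strand), held 319, 324 and 291 against 294, 256 and 315. Its log2 fold change was 0.11, from -0.1 to 0.33 (adjusted p = 0.597). Leaving out wildtype replicate 2 moved Higd1a to 0.03, and leaving out wildtype replicate 3 moved it to 0.18.

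P4ha1, the catalytic subunit of the prolyl hydroxylase that matures collagen (chromosome 10, 59159118 to 59209126, forward strand), held 274, 269 and 320 in knockout and 299, 296 and 274 in wildtype libraries. The ranges overlap, and the log2 fold change was -0.01, from -0.22 to 0.19 (limma, adjusted p = 0.959).

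Ndrg1, a cytosolic stress-response protein induced by low oxygen and by differentiation, was the one gene higher in every knockout library (chromosome 15, 66801167 to 66841489, reverse strand). It held 499, 440 and 672 in knockout and 371, 403 and 381 in wildtype libraries. The wildtype libraries lie close together and knockout replicate 3 lies far above the rest. The mean was 537 ± 121 against 385 ± 16.4 (SD, n = 3 each), 1.4 times the wildtype mean. By limma the log2 fold change was 0.46 (SE 0.14, adjusted p = 0.166), which did not pass. It was 0.28 without knockout replicate 3 (adjusted p = 0.0621) and 0.59 without knockout replicate 2, where it passed (adjusted p = 0.036) with 3.41% of all genes. The adjusted p lay between 0.00261 and 0.473 over 22 alternatives. The log2 difference was 0.26 between male libraries and 0.85 between the single female pair, and this difference between sexes was not tested.

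Ankrd37, a small ankyrin repeat protein known as a direct HIF target, differed most (chromosome 8, 46449939 to 46458744, reverse strand). It held 28, 19 and 17 in knockout and 44, 54 and 66 in wildtype libraries. All knockout libraries lie well below all wildtype libraries. The mean was 21.3 ± 5.86 against 54.7 ± 11 (SD, n = 3 each), 0.39 of the wildtype mean. On the log2(value + 1) scale the fold change was -1.33 (SE 0.26), with a 95% interval from -1.91 to -0.75 and an adjusted p of 0.0537 by limma. This is just above the threshold of 0.05. These values rest on few reads, 30, 18 and 20 in knockout and 42, 56 and 56 in wildtype libraries. The log2 difference was -1.33 between male libraries and -1.32 between the single female pair. Ankrd37 passed without knockout replicate 3 (adjusted p = 0.0165, with 4.86% of all genes called), without knockout replicate 2 (0.0486, 3.41%), in the male libraries alone (0.0332, 1.71% of genes called), with sex in the model (0.0348, 1.49%) and with no filter (0.0351, 1.04%). It also passed with library quality weights (0.00884), where its log2 fold change was -0.89 and 23.3% of all genes were called. Without knockout replicate 1 its adjusted p was 0.0915, with 6 of all genes called. Without wildtype replicates 1, 2 and 3 it was 0.194, 0.16 and 0.236, with 3, 0 and 0 of all genes called. Over 21 alternatives it lay between 0.00884 and 0.236.

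In the coordinates given with the values, the span of Ankrd37 overlaps that of Lrp2bp, a gene on the opposite strand, chosen here with its values known. The RefSeq promoter windows place the starts of these genes 10752 bases apart, with the genes running away from each other. In the GENCODE M21 models their exons share 349 bases, 22.7% of the exon bases of Ankrd37. Lrp2bp held 13, 8 and 9 in knockout and 30, 27 and 37 in wildtype libraries and was called lower (log2 fold change -1.57, limma, adjusted p = 0.0472). It was called in 10 of 21 alternatives, with adjusted p from 0.00232 to 0.231. Fits that did not call it include those without knockout replicate 1 (0.0919) or wildtype replicates 1, 2 and 3 (0.231, 0.124 and 0.223). Those left-out fits called 6, 3, 0 and 0 of all tested genes. Other alternatives, which kept these libraries, did not call Lrp2bp either. The libraries were made with a stranded kit, but the sources used here do not state whether the authors counted by strand. Without that, reads from the shared bases cannot be told apart. Ufsp2, which overlaps the other end of Ankrd37 by 57 bases, held 310, 304 and 292 against 338, 320 and 313 (log2 fold change -0.1, adjusted p = 0.542). Bnip3 and Higd1a also share 22.3% and 22.5% of their exon bases with noncoding genes on the other strand, Gm45507 and Gm47112, whose values were at most 32 and 16. Ndrg1 shares 6.35% of its exon bases with Gm17035 and 2.08% with Gm2895, also on the other strand, whose values were at most 28 and 7. Hif1a shares 5.6% with Gm15283, whose values were at most 23.

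**Figure D3:**
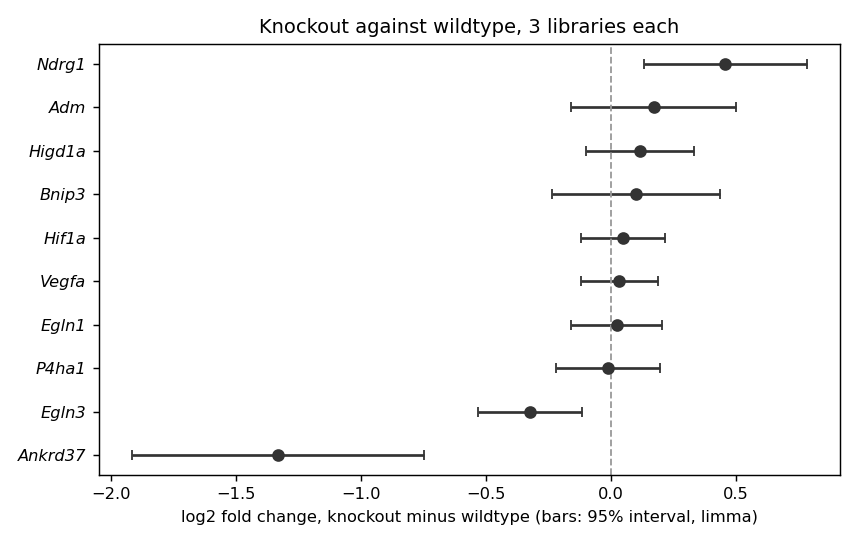
Log2 fold change of knockout minus wildtype (horizontal axis, log2(value + 1) scale) for the 10 genes, with 95% intervals from limma as bars and a dashed line at 0. Intervals of Ankrd37, Egln3 and Ndrg1 lie off 0 before adjustment for 14974 tests, and those of the other 7 genes cross it.

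Other genes of the pathway were taken from lists of textbook members, 104 genes of which 101 were tested. Of these 1 rose and 1 fell, 1.98% against 0.942% of all tested genes. The gene that rose, 1 of 16 tested relatives of the 10 genes, was Ndrg3, a relative of Ndrg1 whose protein is itself stabilized in low oxygen. It held 423, 421 and 463 in knockout and 330, 286 and 293 in wildtype libraries. The groups lie well apart, with a log2 fold change of 0.52 (SE 0.08, adjusted p = 0.0308 by limma). It was called in 16 of 22 alternatives. Fits that did not call Ndrg3 include those without knockout replicate 1 (0.107) or wildtype replicates 1, 2 and 3 (0.122, 0.105 and 0.195). These fits called 6, 3, 0 and 0 of all tested genes. Those without knockout replicates 2 and 3 called 510 and 727. The other 2 relatives, Ndrg2 and Ndrg4, had log2 fold changes of 0.06 and 0.08 (adjusted p = 0.677 and 0.653). The gene that fell was Aldoc, a glycolytic aldolase, with 102, 119 and 98 in knockout against 240, 192 and 188 in wildtype libraries. Its log2 fold change was -0.95 (adjusted p = 0.0233), and it was called in 16 of 22 alternatives. Fits that did not call Aldoc include those without knockout replicate 1 (0.0928) or wildtype replicates 1, 2 and 3 (0.144, 0.0974 and 0.143). These are the same fits with few or no calls.

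Among 17 tested sensors and factors other than the genes above, 0 rose and 0 fell by limma. Against 16.4% of all tested genes, 1 of them had an unadjusted p under 0.05. That was Siah2, a ubiquitin ligase that acts on Egln proteins, with 151, 171 and 138 in knockout against 201, 165 and 199 in wildtype libraries (log2 fold change -0.29, adjusted p = 0.283). Epas1, which encodes HIF-2 alpha, held 1461, 1290 and 1507 against 1286, 1274 and 1252, so that every knockout library was higher (log2 fold change 0.16, adjusted p = 0.311). Hif3a, a further alpha subunit, spread widely in both groups, with 935, 560 and 1338 against 477, 973 and 432 (log2 fold change 0.6, from -0.49 to 1.69, adjusted p = 0.554). Left-out libraries moved Hif3a to 0.31 (knockout replicate 3), 0.93 (knockout replicate 2), 0.97 (wildtype replicate 2) and 0.38 (wildtype replicate 3). Egln2, the third prolyl hydroxylase, held 512 ± 33.7 against 486 ± 12.3 (SD, n = 3 each; adjusted p = 0.655). The median of this list was 0.05.

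Of the 9 tested receptors for Vegfa and Adm and their relatives, 0 passed. An unadjusted p under 0.05 was reached by 5 with higher and 1 with lower values, where 16.4% of all tested genes reached it in either direction, with a median log2 fold change of 0.17. Flt1, a receptor of Vegfa, held 1073, 948 and 1104 in knockout against 780, 941 and 802 in wildtype libraries (log2 fold change 0.31, limma, adjusted p = 0.14). Nrp1, its co-receptor, held 796, 724 and 674 against 574, 670 and 510 (0.33, adjusted p = 0.17). Kdr, the main signalling receptor of Vegfa, overlapped, at 1109 ± 158 against 1080 ± 33.6 (SD, n = 3 each; log2 fold change 0.03, adjusted p = 0.91). These receptors are endothelial genes, and the summed levels of 10 endothelial markers, Kdr among them, were 9908 to 10380 in knockout and 9187 to 9811 in wildtype libraries. Their part in the receptor values was not tested.

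Adrenomedullin signals through Calcrl joined to a Ramp protein. Calcrl held 317, 277 and 322 against 287, 343 and 308 (log2 fold change -0.03, limma, adjusted p = 0.891). The accessory proteins differed in direction. Ramp3 held 81, 64 and 106 in knockout against 55, 54 and 39 in wildtype libraries (0.74, adjusted p = 0.156), and Ramp2 held 534, 501 and 503 against 431, 454 and 481 (0.17, adjusted p = 0.263). Ramp1 lay lower in every knockout library, with 181, 231 and 177 against 304, 286 and 290 (-0.59, adjusted p = 0.0521). Ramp1 with Calcrl forms the receptor of another peptide, CGRP. Summed markers of smooth muscle and pericytes were 5465 to 5795 in knockout and 5981 to 6364 in wildtype libraries, and their part in the values of Ramp1 was not tested.

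In the other target lists 0 genes passed by limma, apart from Aldoc. The 10 vascular targets had a median log2 fold change of 0.31, the highest of the lists. Against 16.4% of all tested genes, 2 of them had an unadjusted p under 0.05. These were Flt1, given above, and Ccn1, a matrix-associated signal, with 439, 399 and 760 against 348, 235 and 301 (0.81, adjusted p = 0.216). Knockout replicate 3 is the highest of the Ccn1 values, and without it the log2 fold change was 0.52. Apln, the ligand apelin, went the other way and overlapped, with 53, 146 and 173 against 272, 164 and 309 (-1.11, from -2.29 to 0.07, adjusted p = 0.324). Without knockout replicate 1, the lowest, Apln was at -0.59. Edn1 of the vascular list was also highest in knockout replicate 3 (155, 103 and 231 against 117, 107 and 97), while Angptl4 was lowest in it. The median of the list was not computed without that library. The 9 mitochondrial and mitophagy genes lay between -0.11 and 0.12, and 0 had an unadjusted p under 0.05. Bnip3l, the relative of Bnip3, held 482, 459 and 573 against 495, 457 and 533 (0.02, adjusted p = 0.925).

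Of 7 collagen-processing targets, against 16.4% of all tested genes, 1 had an unadjusted p under 0.05. This was P4ha2, the relative of P4ha1, with 349, 310 and 352 in knockout against 275, 288 and 229 in wildtype libraries (0.36, limma, adjusted p = 0.142). Lox, which crosslinks collagen, held 468, 566 and 1002 against 421, 460 and 415 (0.57, adjusted p = 0.356), with knockout replicate 3 far above the rest and a log2 fold change of 0.25 without it. Among 23 other targets 5 had an unadjusted p under 0.05, all with higher values. Of all tested genes 16.4% reached it in either direction. The median of the list was 0.03. The smallest p there was that of Gbe1, the branching enzyme of glycogen, with 637, 622 and 638 against 556, 532 and 545 (0.22, adjusted p = 0.124). Ddit4, an inhibitor of mTOR, held 622, 411 and 566 against 390, 431 and 395 (0.37, adjusted p = 0.244). Of 18 glycolytic targets 4 had a fold change above 0 and the median was -0.07. Next to Aldoc came Pdk1, a kinase that inhibits pyruvate dehydrogenase, with 1168, 1145 and 1020 against 1368, 1444 and 1408 (-0.34, adjusted p = 0.0583).

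**Figure D4:**
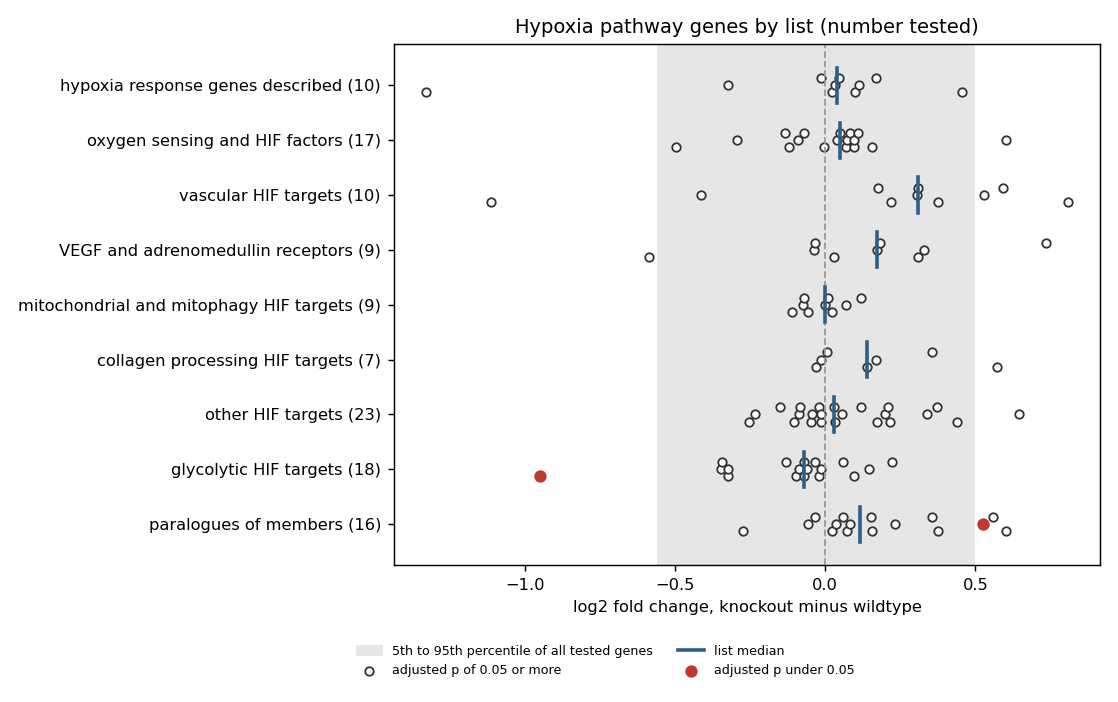
Log2 fold change of knockout minus wildtype (horizontal axis) for each tested gene of 9 lists, the first of which holds the 10 genes described here; red points passed an adjusted p of 0.05, blue bars are list medians, and grey spans the 5th to 95th percentile of all tested genes (-0.56 to 0.5). Aldoc at -0.95 and Ndrg3 at 0.52 are the 2 red points, and Ankrd37 at -1.33 lies outside the grey span. A gene can stand in more than 1 list.

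**Figure D5:**
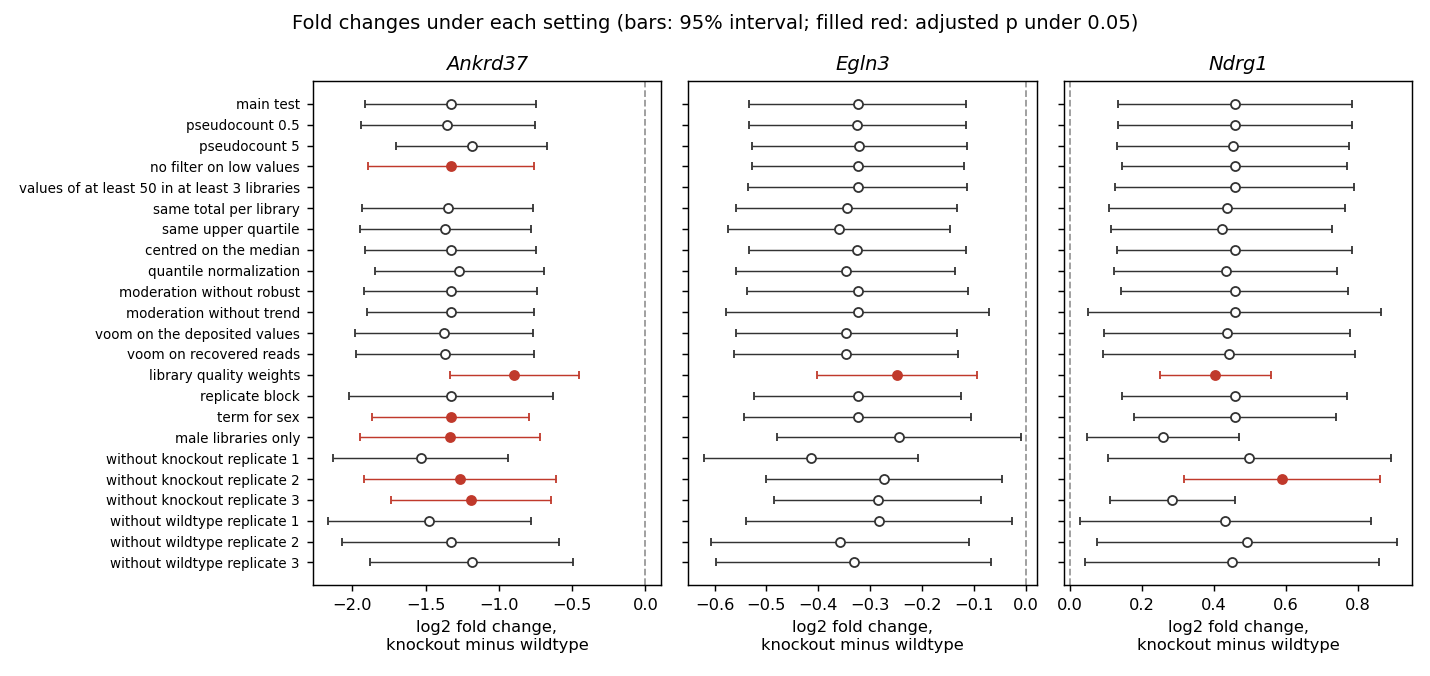
Log2 fold changes of Ankrd37, Egln3 and Ndrg1 (horizontal axes, knockout minus wildtype) under each processing setting and without each library in turn, with 95% intervals; red filled points passed an adjusted p of 0.05. Every value keeps its sign, and Ankrd37 has none under the filter of at least 50; Ankrd37 is called in 6 of 21 alternatives, Ndrg1 in 2 of 22 and Egln3 in 1 of 22.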

How the data were processed

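Heart RNA from 3 Rbpms knockout and 3 wildtype libraries was sequenced from a stranded mRNA kit in single-end runs of 72 bases, per the labels' protocols. The submitters' processing notes list DESeq2 1.36.0, featureCounts 2.0.4, STAR 2.7.11a, Trimmomatic 0.39, Picard 3.0.0 and mm39, without roles. Values as deposited count here as a score: they look like read numbers scaled for each library and rounded. No source states that step, which was inferred from whole numbers that never occur, or occur doubly often, at regular steps. Library factors from this spacing, 0.8524 to 1.1798, gave recovered reads, and 100% of values under 400 fitted a whole read number. With a factor under 1 every value fits by construction, so only libraries with factors above 1 could have failed this check. With factors under 1, 7.01% to 30.12% of the values could come from more than 1 read number.

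Genes reaching 10 in 3 or more libraries were tested with limma 3.58.1 in R 4.3.3 on log2(value + 1), with trend and robust moderation, no covariate and Benjamini-Hochberg adjustment over all 14974. This scale understates the change of low genes. The members and lists were chosen with earlier results of these data known. All 10 genes and Rbpms were named, with every called gene of each list and up to 4 more by smallest p, or any relative of a member. Ramp2, Kdr, Calcrl, Lrp2bp, Ufsp2, the other-strand genes at Bnip3, Higd1a, Ndrg1 and Hif1a, Angptl4 and Slc2a1 were added after their values were seen. Exon lengths came from GENCODE M21 (GRCm38), matched by identifier for 98.2% of tested genes. On simulated data for this comparison, with 15010 genes tested, 40% of genes changed 1.5-fold and 96% of those changed 2-fold were called. Of the 177 calls there, 11 were false. The simulation had an assumed dispersion and no deviating library or sex difference, so these shares need not hold for the real libraries. Alternatives covered scaling, filter, pseudocount, weighting, sex, replicate number and each library left out.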

Additional observations from a re-analysis of the deposited data

How the results depend on the processing

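All 10 hypoxia genes stayed uncalled under 16 of 22 alternatives. Members called higher numbered 1 with library quality weights, and 0 to 1 with each library left out. Members called lower numbered 1 with no filter on low values, 2 with quality weights, 1 with sex in the model and 1 in males alone, and 0 to 1 with each library left out. The count over all genes, 141, was 218 with no filter, 83 with values of at least 50, 90 without robust moderation, 14 without trend, 73 by voom on the deposited values and 73 on recovered reads. It was 3486 with quality weights (23.3% of genes), 223 with sex in the model, 256 in males alone and 0 to 727 with each library left out. Fold changes near 0 turned sign. Vegfa was -0.0043 with the same upper quartile, -0.013 in male libraries and -0.0025 to 0.093 with a library left out. Egln1 was -0.014 with the same upper quartile, -0.0038 with quantile normalization, -0.00037 by voom on recovered reads and -0.026 to 0.098 with a library left out. Hif1a was -0.021 with quality weights, -0.0047 in male libraries and -0.00053 to 0.095 with a library left out. With a library left out Bnip3 ran from -0.037 to 0.27, P4ha1 from -0.092 to 0.033, Higd1a from 0.031 to 0.18 and Adm from 0.077 to 0.27. Ankrd37, Egln3 and Ndrg1 kept their signs. Rbpms was not called without trend (adjusted p = 0.0574). Causes were not tested. Same-numbered libraries did not deviate together (r = -0.17, -0.11 and -0.13), so no pairing by number was seen. With 3 libraries per group this cannot exclude one. With the replicate number as a block 23 genes and 0 of the 10 were called. Ankrd37 has no value under the filter of at least 50. Its 18 to 56 reads per library limit its precision. Scaling to the same total calls 42 genes higher and 58 lower, and the upper quartile 52 and 78, against 76 and 65, and these shift the median of all genes to -0.02 and -0.04.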

Other observations

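Knockout replicate 3 differed from the other knockout libraries in further hypoxia-related genes, chosen after their values were seen. Slc2a1, the glucose transporter GLUT1 and a HIF target, held 251, 236 and 476 in knockout and 252, 277 and 254 in wildtype libraries. Angptl4, a secreted inhibitor of lipoprotein lipase that responds to low oxygen and to fatty acids, held 761, 832 and 156 against 576, 630 and 647. So Slc2a1 was highest and Angptl4 lowest in the same library, which was also the highest for Ndrg1, Bnip3, Adm, P4ha1 and Hif1a among the 6. It was the lowest for Egln1 and Ankrd37.

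Ankrd37 lies 12 Mb from Rbpms on chromosome 8, and this window was chosen after seeing the data. Of 143 other genes tested within 15 Mb of Rbpms 1 was called, Lrp2bp, which is 0.699%, against 0.742% of the other genes tested on chromosome 8 and 0.942% of all tested genes.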
